A study of Mus musculus with 3 samples.

Results

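Ifng encodes interferon-γ (IFN-γ), the cytokine through which natural killer cells (NKC) activate macrophages and raise antigen presentation in neighbouring cells. Ifng was located by its symbol in the mouse annotation of mm9 (GENCODE, NCBIM37) as 1 of 22350 protein-coding genes, and the Runx3 peaks and H3K4me1 regions that overlapped the gene body or the 100 kb on either side of it were listed. The listing gave 8 of the 15524 Runx3 peaks and 19 of the 49902 H3K4me1 regions of resting splenic NKC. The gene (ENSMUSG00000055170.3) occupied chr10:117878103-117882948 on the plus strand, 4846 bp with 4 exons, so the window examined was chr10:117778103-117982948.

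IFN-γ production by NKC is switched on by IL-12 and IL-18 signals, by the STAT4 factor below the IL-12 receptor and by the T-box factors T-bet and Eomes. Resting NKC already carry an accessible Ifng locus, and the gene is known to be served by conserved noncoding sequences (CNSs) spread over long distances upstream and downstream of it. Runx3 is a transcription factor of cytotoxic lymphocytes that recognises the RUNX sequence, and monomethylation of histone H3 at lysine 4 (H3K4me1) marks enhancers and the flanks of active promoters.

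The series held 3 ChIP-seq samples of freshly isolated, unstimulated NKC from the spleen of ICR mice, 1 each for Runx3 (home-made polyclonal serum), H3K4me1 (monoclonal antibody) and non-immune rabbit serum (NIS), the control against which the authors called regions. Chromatin was fixed with 1% formaldehyde, and how many mice gave the cells is not given in the sources used here. The labels name a sort on NKp46 and the methods of the study a sort on DX5, so the surface marker of the cells is uncertain. A single list of region coordinates stood for each antibody, with no height, p-value or summit and no replicate list, so all values below are descriptions without a test, and a called region says nothing about how strong its signal was. Depth at a region is unknown for the same reason, and the NIS signal at Ifng was not analysed here.

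As a check of the cell type, a Runx3 peak lay within 5 kb of 7 of 7 NKC marker genes, among them Ncr1, which encodes NKp46, and of 39.8% of all protein-coding genes. The same rule gave 1 of 4 T cell, 2 of 4 B cell and 1 of 4 myeloid markers. An H3K4me1 region lay within 5 kb of 7 of 7 NKC markers, of 3 of 4, 3 of 4 and 2 of 4 markers of the other classes and of 67.7% of all protein-coding genes. Several counts of the other classes lay near these shares, and no difference was tested. Cd3e was the T cell gene with a peak, Cd79a and Pax5 were the B cell genes, and Itgam, which NKC also express, was the myeloid one. The part of such other cells in the regions at Ifng was not tested.

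Runx3 peaks lay on both sides of the gene. Named by the distance of the midpoint from the annotated start, they were found at -34, -21.8, -5.3 and -0.2 kb upstream and at +17.9, +25.8, +28.2 and +29.6 kb downstream. From the first to the last midpoint they spanned 63.7 kb. The -0.2 kb peak overlapped the gene, and the other 7 were intergenic.

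As examples of the RUNX, AP-1 and T-box matches at the locus, the central 300 bp of 5 of the 8 peaks are printed below. They were read from the plus strand of mm9, which is the coding strand of Ifng, from chr10:117843919-117844218, chr10:117872633-117872932, chr10:117877797-117878096, chr10:117895875-117896174 and chr10:117906177-117906476. Capitals mark matches to RUNX (TGTGGT or TGTGGC or TGCGGT or TGCGGC), AP-1 (TGACTCA or TGAGTCA) and T-box (AGGTGT) sequences on either strand. A RUNX match on the minus strand is therefore read here as ACCACA or GCCACA, and a T-box match as ACACCT.
Peak at -34 kb: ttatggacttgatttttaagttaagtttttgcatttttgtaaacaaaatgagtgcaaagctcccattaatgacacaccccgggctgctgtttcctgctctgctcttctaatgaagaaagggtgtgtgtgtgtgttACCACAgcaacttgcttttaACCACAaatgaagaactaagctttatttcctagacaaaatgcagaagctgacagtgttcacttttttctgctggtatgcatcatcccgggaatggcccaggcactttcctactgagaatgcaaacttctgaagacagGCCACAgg
Peak at -5.3 kb: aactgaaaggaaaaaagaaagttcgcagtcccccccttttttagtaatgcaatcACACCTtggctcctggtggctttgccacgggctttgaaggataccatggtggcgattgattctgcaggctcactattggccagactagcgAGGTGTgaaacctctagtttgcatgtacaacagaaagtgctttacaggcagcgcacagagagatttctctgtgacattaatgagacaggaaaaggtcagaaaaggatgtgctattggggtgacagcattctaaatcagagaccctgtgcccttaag
Peak at -0.2 kb: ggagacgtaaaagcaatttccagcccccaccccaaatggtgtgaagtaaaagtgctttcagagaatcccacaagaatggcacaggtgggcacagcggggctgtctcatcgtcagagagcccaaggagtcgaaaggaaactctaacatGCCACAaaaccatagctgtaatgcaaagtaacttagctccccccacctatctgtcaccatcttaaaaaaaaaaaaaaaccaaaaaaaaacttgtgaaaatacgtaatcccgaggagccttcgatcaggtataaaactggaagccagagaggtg
Peak at +17.9 kb: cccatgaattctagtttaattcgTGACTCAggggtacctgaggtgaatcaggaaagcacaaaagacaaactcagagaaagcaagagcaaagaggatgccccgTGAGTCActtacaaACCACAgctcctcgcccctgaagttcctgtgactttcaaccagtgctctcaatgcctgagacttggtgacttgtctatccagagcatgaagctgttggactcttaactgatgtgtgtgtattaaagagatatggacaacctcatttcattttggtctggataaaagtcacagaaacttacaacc
Peak at +28.2 kb: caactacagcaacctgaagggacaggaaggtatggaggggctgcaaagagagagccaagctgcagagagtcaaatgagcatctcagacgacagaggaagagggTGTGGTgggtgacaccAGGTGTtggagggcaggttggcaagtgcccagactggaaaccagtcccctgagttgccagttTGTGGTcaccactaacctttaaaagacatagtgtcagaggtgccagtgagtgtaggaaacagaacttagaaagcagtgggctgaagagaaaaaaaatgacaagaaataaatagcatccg

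The promoter peak at -0.2 kb, chr10:117877479-117878414, was 936 bp wide and had its midpoint -156.5 bp from the start. It covered the proximal promoter and ran through exon 1 into intron 1, with 312 bp of it inside the gene. Across all protein-coding genes, 21.4% had a Runx3 peak over the start. A RUNX match in the minus orientation (GCCACA in the sequence above, chr10:117877944-117877949) was centred exactly on the midpoint, 0.0 bp away, although the deposited list gives no summit and the midpoint need not be one. The whole peak held 6 RUNX matches, more than any of the other 7, spread from -461.0 to +403.0 bp of the midpoint, and the centre also held 1 STAT-type match (TTCNNNGAA) at -89.5 bp, which is left in lower case in the sequence above.

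The most distal upstream peak, at -34 kb (chr10:117843670-117844466, 797 bp), had the most RUNX matches in its centre of the 8. Its 3 matches included a pair at -11.5 and +8.5 bp of the midpoint, visible above as ACCACA repeated on the same strand. Of all 15524 centres, 15.7% held 3 or more RUNX matches, and 22.8% held a pair of them within 50 bp of each other. At Ifng this peak was the only 1 of 8 with such a pair.

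The next upstream peak, at -21.8 kb (chr10:117855797-117856872), was 1076 bp wide, which put it at percentile 84.9 of all Runx3 peak widths. Its centre held 1 RUNX match, 87.0 bp from the midpoint, and 1 T-box match. The -5.3 kb peak (chr10:117872327-117873238, 912 bp) differed from the others, since no RUNX match stood anywhere in it. Its centre held a pair of T-box matches instead, at -93.0 and -3.0 bp, which are the capitals of its sequence above. A match is a run of letters, not a measured site, and its absence says only that these spellings are not in the window.

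Downstream, the +17.9 kb peak (chr10:117895609-117896439, 831 bp) was the one with AP-1 and RUNX matches close together. Its 2 AP-1 matches stood at -123.0 and -44.0 bp and its RUNX match at -30.5 bp, so that TGAGTCA is followed within a few bases by ACCACA in the sequence above. An AP-1 and a RUNX match within 50 bp of each other occurred in 3.05% of all Runx3 peak centres and in 1 of the 8 at Ifng.

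The remaining 3 peaks formed a cluster. At +25.8 kb (chr10:117903491-117904283, 793 bp) the centre held no match to any of the 5 sequences, and the single RUNX match of that peak lay 203.5 bp from the midpoint. At +28.2 kb (chr10:117905851-117906802, 952 bp) the centre held 2 RUNX matches, at -44.0 and +34.0 bp, with a T-box match between them at -28.0 bp. At +29.6 kb (chr10:117907075-117908387), the widest of the 8 at 1313 bp (percentile 93.7), the centre held 1 ETS match (AGGAAGT or CGGAAGT) and 1 AP-1 match, and a RUNX match straddled its edge at 149.5 bp. The +28.2 and +29.6 kb peaks were separated by a gap under the width of either.

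**Figure D1:**
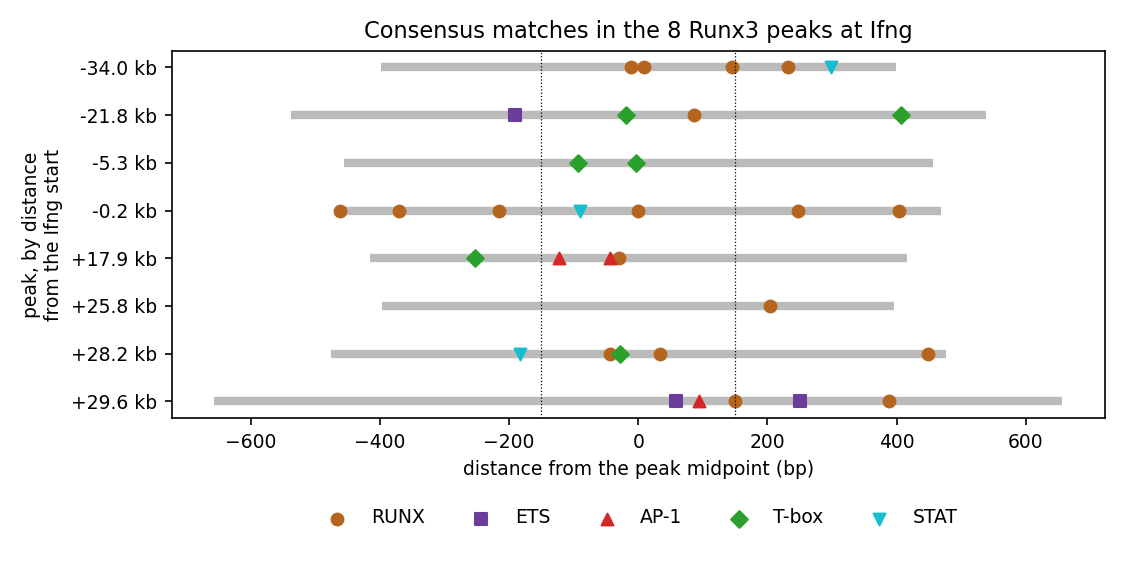
Consensus matches along the 8 Runx3 peaks of the Ifng window, with the distance from each peak's midpoint in bp on the x axis, a grey bar for each peak drawn to its width and dotted lines at the limits of the central 300 bp. The -0.2 kb peak carries 6 RUNX matches (circles), the -5.3 kb peak carries T-box matches (diamonds) and no RUNX match, and in the +17.9 kb peak an AP-1 match (triangle) stands close to the RUNX match.

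Taken over the 8 centres, a RUNX match was present in 5, against 79.4% of all Runx3 peak centres. In the whole width of the peaks it was present in 7 of 8, against 93.3% of all peaks. The spelling TGTGGT occurred in 4 of the 8 centres (48.7% of all) and TGTGGC in 2 (31.3% of all), whereas TGCGGT and TGCGGC occurred in 0 (16% and 14.7% of all). With 8 peaks these counts carry a wide counting error and no difference from the whole list was tested.

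The other factors were counted in the same way. A T-box sequence was found in 3 of 8 centres (18.7% of all), an AP-1 sequence in 2 (7.63%), a STAT-type sequence in 1 (8.28%) and an ETS sequence in 1 (25.9%). Over the whole peaks the counts were 4 for T-box (41.3% of all), 2 for AP-1 (16.5%), 3 for STAT (22.3%) and 2 for ETS (41.8%). A RUNX and an ETS match within 50 bp of each other was found in 0 of 8, against 10.6% of all centres. The GC content of the 8 peaks ran from 41.1% to 49.1%, below the median of 50.7% for the whole list. That list also holds many promoter peaks, and no comparison with intergenic peaks alone was made.

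The 8 widths ran from 793 to 1313 bp, with the -34 and +25.8 kb peaks under and the other 6 above the median of all peaks (825 bp). Each 40-base word in the 8 peaks was unique in the genome, which bears on the lists because only uniquely aligned reads were used.

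Every Runx3 peak of the window lay wholly inside an H3K4me1 region. All 8 were covered over 100% of their width and had their midpoints inside the region. Of all Runx3 peaks, 95.7% overlapped H3K4me1 by at least 1 bp and 83.6% had their midpoints inside. By overlap, 8 of 8 lies near the share of all peaks, and no difference was tested. The share of all peaks covered over their full width is not given here. The place of the midpoint within the region was scaled so that 0 is an edge of the region and 1 its middle. The -34 kb peak sat at 0.977, the -5.3 kb peak at 0.884 and the +28.2 kb peak at 0.848, near the middle of their regions as listed. The region of the -34 kb peak was separated by 29 bp from the next region upstream. Were these joined, that peak would sit further from the middle. The other 5 sat between 0.521 and 0.683, off centre towards one edge.

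**Figure D2:**
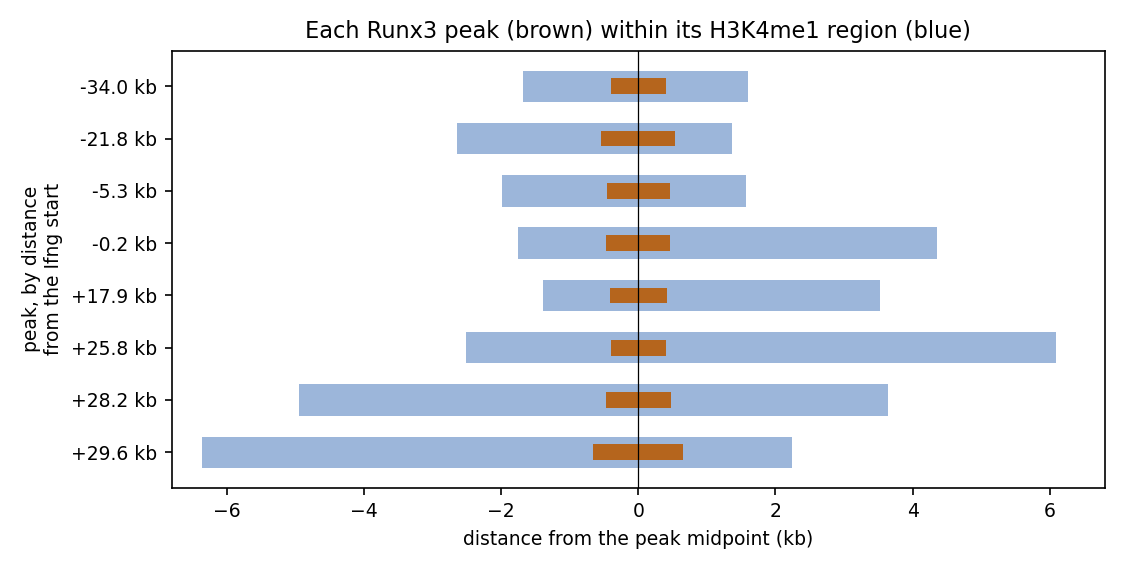
The 8 Runx3 peaks (brown) drawn inside their H3K4me1 regions (blue), with the distance from the peak midpoint in kb on the x axis and 1 row per peak. The peaks at -34, -5.3 and +28.2 kb sit near the middle of the marked region as listed, and the last 3 rows share 1 region of 8596 bp.

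The 19 H3K4me1 regions extended further than Runx3 did. Together they covered 60.8 kb, 29.7% of the window, and 6 of them held Runx3 peaks, against 28.6% of all H3K4me1 regions. The region over the gene, chr10:117876192-117882305, ran from -1.9 to +4.2 kb and took in the promoter and all 4 exons, 86.7% of the gene body. The region with the +25.8, +28.2 and +29.6 kb peaks, chr10:117901376-117909971, was the widest of the window at 8596 bp, and 0.918% of all H3K4me1 regions held 3 or more Runx3 peaks.

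Regions with Runx3 were the wide ones. The 6 regions with a peak measured 3276 to 8596 bp (median 4466.5 bp) and the 13 without measured 933 to 8401 bp (median 1814 bp). In the whole list the corresponding medians were 2646.5 and 1614 bp. A wider region has more room for a peak, so the count and the width are not separate measures.

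A single region without Runx3 was wider than the narrowest region with it. This region, chr10:117961513-117969913, lay from +83.4 to +91.8 kb and measured 8401 bp, percentile 97 of all H3K4me1 widths. Of the 1484 H3K4me1 regions at least as wide, 237 (16%) held no Runx3 peak. Beyond the last Runx3 peak a further 9 H3K4me1 regions followed without any Runx3, from +35.1 kb to the end of the window. Between the first and the last Runx3 peak, by contrast, 6 of 8 H3K4me1 regions held Runx3, and the exceptions lay at -27.8 and +14.1 kb.

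H3K4me1 was unevenly spread about the gene. In the 100 kb upstream it covered 16.8 kb in 7 regions, and in the 100 kb downstream 39.8 kb in 12 regions, while Runx3 peaks were equal in number, with 4 midpoints on each side. Mappability differed between the sides in the same direction, with 69% of 40-base words unique upstream and 93.5% downstream. Counted over unique positions, H3K4me1 covered 24.1% upstream and 41.5% downstream. From 80 to 100 kb upstream, where 14.4% of words were unique, 0 regions of either kind were listed. Between the -21.8 and -5.3 kb peaks, 15.8% of words were unique in the stretch centred -15000.5 bp from the start. No region of either kind was listed in that stretch. Whether the mark is at these places cannot be told from these lists.

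Downstream, the gap after the last Runx3 peak of the window began with sequence of lower mappability. In the stretches centred 32999.5 and 34999.5 bp from the start, 47.7% and 48.2% of words were unique. From +40 kb to the end of the window, where 94.6% of words were unique, 8 H3K4me1 regions covered 19.8 kb and 0 Runx3 peaks were listed. The next Runx3 peak lay beyond the window at +109.4 kb (chr10:117987144-117987808), inside H3K4me1, after a stretch of 78.8 kb without one. Upstream of the -34 kb peak there was no Runx3 peak for 264.7 kb, up to a peak at the promoter of Mdm1 at -299.4 kb. Mappability was low in part of this stretch too, with 43.6% of words unique from 60 to 100 kb upstream. Uniqueness was not counted over its far end.

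**Figure D3:**
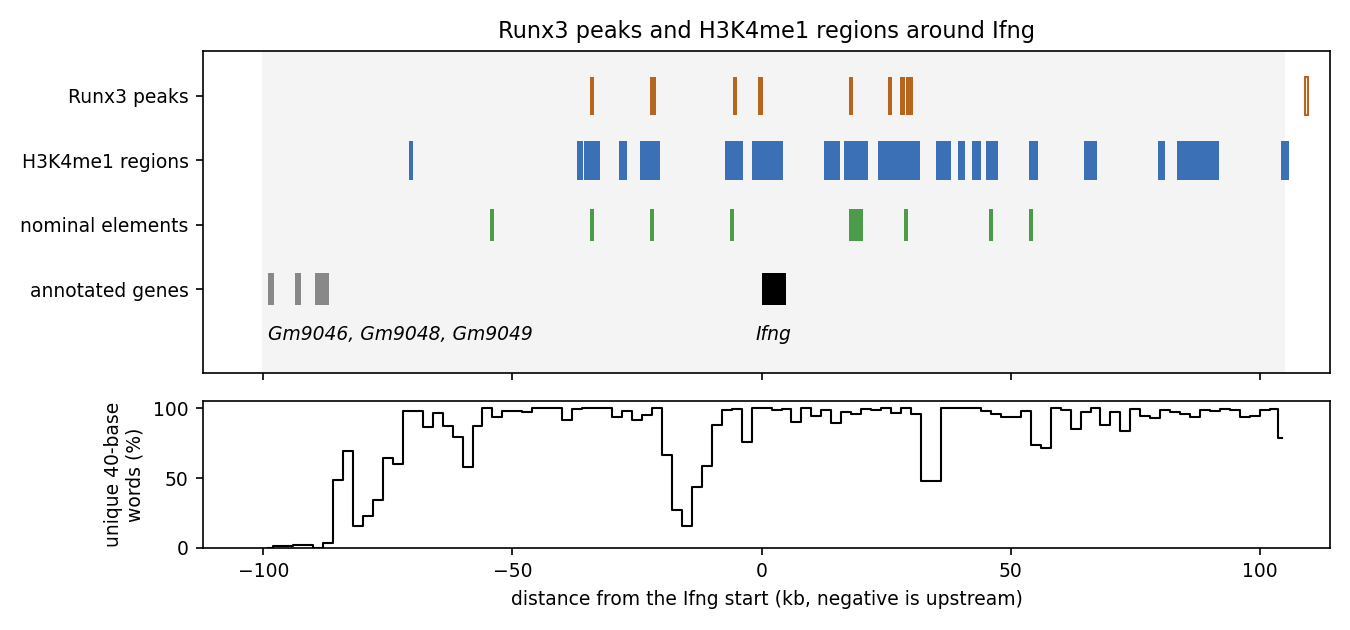
Map of the Ifng locus with the distance from the gene start in kb on the x axis, Runx3 peaks in brown (the open box lies outside the window), H3K4me1 regions in blue, nominal CNS positions in green, genes below, the examined window shaded, and the percentage of unique 40-base words in the lower panel. Runx3 peaks run from -34 to +29.6 kb, and H3K4me1 continues downstream to the end of the window. Few words are unique over the 3 genes at the upstream end and in a stretch between the -21.8 and -5.3 kb peaks.

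The genes around Ifng differed in what they carried. The window held Gm9046, Gm9048 (pseudogenes) and Gm9049, between -99 and -86.8 kb, with 0.0% of their 40-base words unique and therefore no readable result. Il22, which encodes the cytokine IL-22 and lies from -236.1 to -231.0 kb, had 0 Runx3 peaks and 0 H3K4me1 regions within 5 kb, and so did its near copy Iltifb at -151.4 to -146.0 kb, where 63.1% of words were unique. Word uniqueness was not counted at Il22 itself, so whether a region there could have been called is not known. Mdm1, the next gene upstream of Il22, had 1 Runx3 peak and 3 H3K4me1 regions within 5 kb. The next protein-coding gene downstream, Dyrk2, which encodes a protein kinase, began 418.3 kb away and had 3 Runx3 peaks and 3 H3K4me1 regions within 5 kb. Ifngas1, an antisense RNA that is the next gene downstream in a later mouse annotation, is not placed in the one used here and its position was not used.

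The locus has 8 CNSs commonly named by their distance from the gene start, and each Runx3 peak was compared with these nominal distances, allowing 2 kb. The names are general knowledge, the match is by distance alone and it identifies no conserved sequence. CNS-34, CNS-22, CNS-6, CNS+18-20 and CNS+29 had a Runx3 peak, 5 of 8, with the nearest midpoints 0.0, 0.2, 0.7, 1.1 and 0.6 kb away. The 1.1 kb of CNS+18-20 is measured from the middle of its range, and the midpoint lay closer to the near end. CNS+29 had 2, those at +28.2 and +29.6 kb.

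H3K4me1 was found at 7 of the 8 nominal positions, at these 5 and also at CNS+46 and CNS+54, which had no Runx3 peak. CNS-54 had neither, although 97% of the words there were unique. H3K4me1 covered 29.7% of the window. The larger share of the window within 2 kb of an H3K4me1 region was not counted, so 7 of 8 has no like background. Seen from the peaks, 6 of 8 lay within 2 kb of a nominal distance, and 16.6% of the window did. The promoter peak and the +25.8 kb peak were the exceptions.

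Against other genes Ifng ranked high but not at the extreme. Over the same kind of window the median protein-coding gene had 2 Runx3 peaks (interquartile range 0 to 5), and 11.8% had at least the 8 of Ifng. The 19 H3K4me1 regions were equalled or passed by 12.9% of genes (median 9), and the 60.8 kb of covered sequence by 6.83% (median 18.2 kb).

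The rank differed with the genes compared. Among the 1039 protein-coding genes with no other protein-coding gene in the window, 1.73% had 8 or more Runx3 peaks and 2.21% had as much H3K4me1, but such genes also carried less of both, with a median of 0 Runx3 peaks and 0 H3K4me1 regions. In the Ifng window the sole other protein-coding gene was Gm9049. Among the 1084 genes whose H3K4me1 cover was within 10% of that of Ifng, the median was 8 Runx3 peaks (interquartile range 7 to 10) and 61.7% had at least 8, so the count at Ifng equalled the median of genes with like H3K4me1 cover.

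The genes whose windows were most like that of Ifng were found by the distance over 6 measures, the number of Runx3 peaks and the kb of H3K4me1 upstream, in the body and downstream. Onecut3 was nearest (distance 0.27), followed by Ncl (0.43), Zfp3 (0.46), Pgls (0.50) and Rcor2 (0.51), against a median distance of 4.47 over all genes. Onecut3 had 4 Runx3 peaks upstream, 0 in the body and 4 downstream by midpoint, as Ifng did, with 16.9, 3.98 and 33.1 kb of H3K4me1 against 16.8, 4.2 and 39.8 kb at Ifng. The resemblance is one of numbers only, over 1 list per antibody.

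Other cytokine genes gave a broad range of Runx3 counts. In the 100 kb window Il22 and Il2 had 1 peak, Il4, Il10, Il13, Il17a and Il21 had 2, Ifng and Xcl1 had 8, Csf2 had 10, Ccl4 had 12, Ccl5 had 14, Ccl3 had 16 and Tnf had 18. The genes with 1 or 2 peaks encode interleukins, most of them best known from T cells. Those with 8 or more encode IFN-γ, the chemokines XCL1, CCL3, CCL4 and CCL5, GM-CSF (Csf2) and tumour necrosis factor (Tnf). Of all protein-coding genes, 11.8% had 8 or more. The list was chosen for cytokines made by or absent from NKC, so such a division was built into it. H3K4me1 cover differed in the same direction, from 4.61 kb (Il17a) to 38.3 kb (Il10) against 44.9 kb (Xcl1) to 103 kb (Tnf). No difference was tested. A peak over the start was found at Ifng, Xcl1, Ccl3 and Ccl4, 4 of the 14, against 21.4% of all protein-coding genes. These were 3 of the 4 chemokine genes and 1 of the 10 other cytokine genes.

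Gene density limits that comparison. Mappability may limit it for Il22, which has a near copy and where word uniqueness was not counted. Tnf shared its window with 20 other protein-coding genes, Ccl3 with 6 and Ccl4 and Ccl5 with 7 each, while Xcl1 had 0 and Ifng 1. The windows of Ccl3, Ccl4 and Ccl5 overlap, as do those of Il4 and Il13 and those of Il2 and Il21, so their counts are in part the same peaks. Within 5 kb of the gene, 8 of the 14 had at least 1 Runx3 peak, against 39.8% of all protein-coding genes. These were 4 of the 4 chemokine genes and 4 of the 10 other cytokine genes, the latter near the share of all genes. Ifng, Xcl1, Ccl3, Ccl4, Ccl5 and Il10 had 2 each, Il4 and Tnf had 1 and the other 6 had 0.

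**Figure D4:**
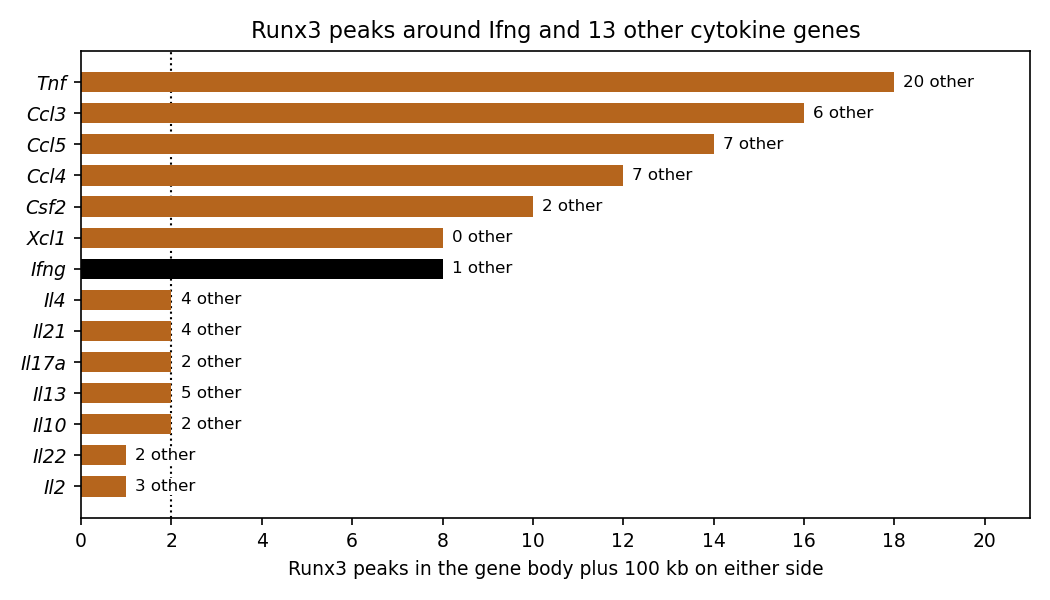
Number of Runx3 peaks in the gene body plus 100 kb on either side for Ifng (black bar) and 13 other cytokine and chemokine genes, with the number of other protein-coding genes in each window written at the bar end and the median of all protein-coding genes as a dotted line. Ifng and Xcl1 both stand at 8, above the 7 genes with 1 or 2.

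The Runx3 peaks of the wider IFN-γ pathway were counted within 5 kb of 25 genes with Ifng included. Of these 17 had a Runx3 peak, against 39.8% of all protein-coding genes, and 25 had an H3K4me1 region, against 67.7%. A peak lay over the start of 11, against 21.4% of all protein-coding genes.

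The counts varied with the role of the gene, a difference for which no test was made. Of the genes that drive IFN-γ production, 7 of 7 had Runx3 within 5 kb, against 39.8% of all protein-coding genes. Tbx21 and Eomes were also among the NKC markers above, so these counts share members. Il18r1, a chain of the IL-18 receptor, had 8 peaks, Stat4 had 6, Tbx21 (encoding T-bet) and Il12rb2 had 4 each, Eomes and Il18rap had 3 and Il12rb1 had 2. Stat4 and Il12rb2 are long genes, as is Jak1 below, so their windows were larger.

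Among the genes of the response, both receptor chains had peaks, with 3 at Ifngr1 and 1 at Ifngr2. The kinase gene Jak1 had 8 and Jak2 had 0. Of the transcription factor genes, Irf8 had 2, Irf1 had 1 and Ciita had 0. Among the brakes of the signal, Socs1 had 3, Socs3 and Ptpn2 had 2 and Ptpn11 and Pias1 had 0.

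The 4 genes listed as interferon-induced targets had none within 5 kb, where 39.8% of all protein-coding genes had a peak. Gbp2, a guanylate-binding protein gene, Cxcl9 and Cxcl10, chemokine genes, and Nos2, the inducible nitric oxide synthase gene of macrophages, had 0 Runx3 peaks within 5 kb and 1 or 2 H3K4me1 regions each. In the 100 kb window Gbp2 and Cxcl10 had 3 peaks, Cxcl9 had 2 and Nos2 had 8, as many as Ifng. Each gene was counted under 1 role, so the counts by role depend on how the list was divided. Ifng itself had 2 Runx3 peaks within 5 kb, the promoter peak and the -5.3 kb peak, since the near edge of the latter lies just within that distance of the start.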

How the data were processed

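Reads of 40 bp were, as the labels and the paper's methods describe, aligned by the authors to mm9 with ELAND (CASAVA 1.7). Unique alignments were kept, the biological repeats were joined, and MACS was run against NIS, scaling the larger data set to the smaller. The deposited values are coordinates alone, 1 list per antibody (n = 1), read as the joined calls and taken as zero-based starts and given here 1-based. All lists lay on 20 chromosomes of NCBIM37, and 1 region ended past a chromosome end. Gene models were GENCODE vM1 for the same build.

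A region was assigned to a gene when it overlapped the gene body with 100 kb, or 5 kb, on either side by at least 1 bp. Distances run from the gene start to the region midpoint, negative upstream. Consensus sequences were searched on both strands of the central 300 bp and of whole peaks. Word uniqueness was counted for 40-base words on either strand of the assembled chromosomes. Likeness was the Euclidean distance of log2(x + 1) values over 6 measures, among genes over 1 Mb away. No read depth, spread or test could be had from the lists, so no p-value is given. Python 3.11.15, numpy 2.4.6 and matplotlib 3.10.9 were used. Interval counts and coverage were checked on a simulated list, and word counts on the chromosome of Ifng. The gene, CNS, pathway, cytokine and marker lists, the window and the naming rule (all regions of the window, its genes and neighbours, list members, and the 5 most similar genes) were chosen with earlier results of these data known. Adgre1 was found under its older symbol Emr1, and the longer of the models of Ciita was used. Alternatives changed the window, overlap rule, width, merging, set of genes, consensus window and CNS tolerance. A member of the pathway list is counted but its own values are not reported here.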

Additional observations from a re-analysis of the deposited data

How the results depend on the processing

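The counts at Ifng stayed within a factor of 1.5 of the reported values under each alternative. Over windows of 50 and 200 kb, a midpoint rule, a minimum width and merging, Runx3 peaks ran from 6 to 10 and H3K4me1 regions from 13 to 26. The overlap of Runx3 with H3K4me1 stayed at 100%, and the CNS counts stayed at 5 and 7 within 1 or 3 kb. The ranks were not stable. The share of genes with at least as many Runx3 peaks as Ifng, 11.8%, was 3.27% with 50 kb and 21% with 200 kb flanks, 6.18% for peaks of at least the median width, 14.4% after merging, 1.73% among genes alone in their window, 9.15% around the start, and 61.7% among genes of like H3K4me1 cover, which was chosen after seeing the data. For H3K4me1 regions the share, 12.9%, was 6.55%, 23.8%, 15% by midpoint, 6.51%, 5.87%, 3.08% and 10.6% in the matching settings. For covered bases, 6.83% became 3.76%, 14%, 2.21% among genes alone and 4.8% around the start. The cause was not tested. A RUNX match in the whole peak raised 62.5% to 87.5%, since more sequence was searched, and the nearest peak stood at 0 bp when measured from its edge and at -156.5 bp from its midpoint. The number of pathway genes with Runx3 within 5 kb, 17, was 25 within 100 kb, where 72.4% of all genes had a peak, and 13 within 1 kb of the start, where 25.8% had. No paired analysis was possible because each antibody had 1 list without replicates, so leaving out a replicate could not be run either. A stricter score could not be set, since the lists hold none, and width was used in its place. Depth limits which regions were called, but cannot be read from coordinates.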
